A study of Homo sapiens with 4 samples.

Results

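The 35 genes described here encode subunits of the ATP-dependent chromatin remodelling complexes, 35 of the 24483 genes in the deposited expression table. They were taken by name: 16 from the SWI/SNF family, 8 from ISWI, 8 from CHD and 3 from INO80. The list was drawn up with earlier results of these data known, in which BAZ1B already stood among the genes with the highest IP over input ratio, so counts over the members are descriptions and carry no test. All 35 had a row in the table, and 8 of them had less than 1 FPKM (fragments per kilobase of gene, scaled to library size) in each library.

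RNA was recovered by immunoprecipitation with an antibody against NSUN2, an RNA methyltransferase that places 5-methylcytosine, from wild-type PANC-1 cells, an established line of human pancreatic ductal adenocarcinoma. The groups were the lactate IP and the lactate input, from cells given 30 mM sodium lactate for 24 h, and the vehicle IP and the vehicle input, from cells given water. Each group was 1 library, all 4 came from the same cell line, and a control-antibody library was not analysed here. A difference between groups thus lacks a replicate check, and intervals below are 95% intervals on recovered reads that cover counting error only.

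Remodelling complexes use ATP hydrolysis to slide, evict or exchange nucleosomes. Each is built around a catalytic subunit: SMARCA4 or SMARCA2 in SWI/SNF, SMARCA5 or SMARCA1 in ISWI, a CHD protein in the CHD complexes, and INO80, SRCAP or EP400 in the INO80 family. The other subunits place the complex on the genome, read histone marks or hold the assembly together, and several SWI/SNF genes, among them SMARCA4, ARID1A, ARID2 and PBRM1, are known tumour suppressors in pancreatic and other cancers.

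The library totals were 15189967 reads in the lactate IP, 11175432 in the lactate input, 13620414 in the vehicle IP and 17626197 in the vehicle input. Genes outside the mitochondrial genome took 13.9% of the lactate IP, 20.9% of the lactate input, 30.3% of the vehicle IP and 31.3% of the vehicle input, and the mitochondrial ribosomal RNA MT-RNR2 took 41.0% to 83.7%. FPKM is relative to the whole library, so a rise in the mitochondrial share lowers the FPKM of every other gene. On a scale of reads per nuclear-genome read, the log2 ratio of lactate IP over lactate input is higher by 0.59 for each gene, that of vehicle IP over vehicle input by 0.05, lactate over vehicle by 0.58 in the inputs and by 1.12 in the IPs. Values per nuclear-genome read, called the nuclear-read scale, are given beside many of the results. Going over to that scale turned the sign of the log2 ratio for 7 members for IP over input in lactate cells and 0 in vehicle cells. For lactate over vehicle it turned the sign of 19 members in the inputs and of 20 in the IPs. Of 6 markers of ductal and PANC-1 epithelium, 5 reached 1 FPKM in an input, and their summed level was 129, 69.7, 387 and 164 FPKM in the lactate IP, lactate input, vehicle IP and vehicle input. Of 23 markers of acinar, islet, fibroblast, endothelial, immune, neuronal and Schwann cells, 15 were at 0 or not listed, and COL1A1 alone reached 1 FPKM in an input.

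Transcripts of the remodelling subunits took a larger share of the nuclear-genome reads in both IPs than in both inputs. The share was 0.869% in the lactate IP and 0.246% in the lactate input, against 0.903% in the vehicle IP and 0.230% in the vehicle input, or 18361, 5749, 37238 and 12679 reads. The 2 IPs were thus close to each other on this measure, as were the 2 inputs. At 1 FPKM or more stood 24 members in the lactate IP, 14 in the lactate input, 27 in the vehicle IP and 16 in the vehicle input.

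**Figure D1:**
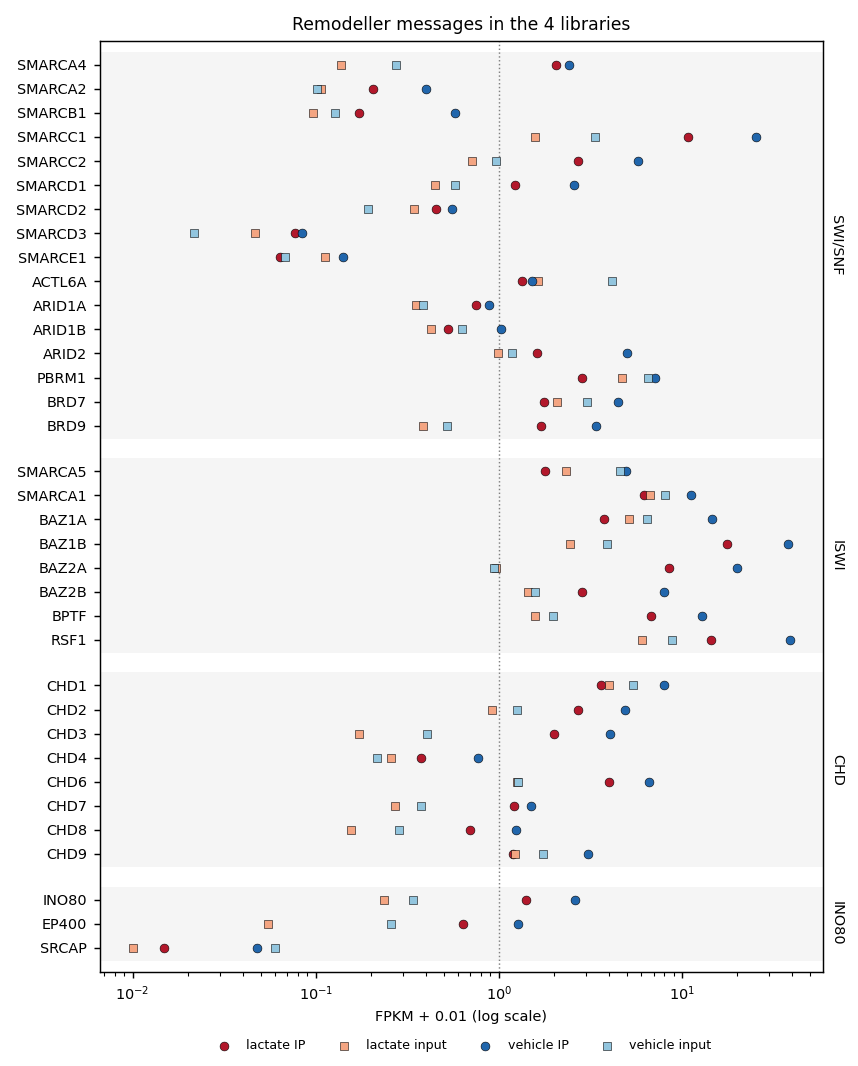
Level of each of the 35 genes in the 4 libraries, as FPKM + 0.01 on a log axis, 1 point per library and gene, grouped by family. RSF1 and BAZ1B reach 38.8 and 38.1 FPKM in the vehicle IP, while SRCAP and SMARCD3 stay below 0.1 FPKM in every library.

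In the SWI/SNF family the catalytic subunit SMARCA4 (BRG1) and the core scaffold SMARCC1 (BAF155) had the highest ratios of IP to input. SMARCA4 lies at chr19:10961030-11062273 (RefSeq, GRCh38.p14). It had 2.03 FPKM in the lactate IP and 0.127 FPKM in the lactate input, against 2.41 FPKM in the vehicle IP and 0.264 FPKM in the vehicle input. Both IPs were far above both inputs. The IPs were close to each other in FPKM, but per nuclear-genome read the lactate IP was higher by 0.87 (0.69 to 1.05) on the log2 scale. The log2 read ratio of IP over input was 4.00 (3.38 to 4.61) in lactate cells and 3.19 (2.84 to 3.55) in vehicle cells, from 22 reads in the lactate input and 72 in the vehicle input. SMARCC1, at chr3:47585269-47781893, had 10.7 FPKM in the lactate IP and 1.56 FPKM in the lactate input, against 25.5 FPKM in the vehicle IP and 3.33 FPKM in the vehicle input. Its log2 read ratios were 2.78 (2.52 to 3.04) in lactate cells and 2.94 (2.79 to 3.08) in vehicle cells, and its mean level was the highest of the family.

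Paralogues that can take the same place in a complex were set against each other, and the ATPases and the scaffold subunits differed in IP over input beyond counting error. SMARCA2 (BRM), the alternative ATPase, had 0.195 FPKM in the lactate IP and 0.0962 FPKM in the lactate input, against 0.391 FPKM in the vehicle IP and 0.0915 FPKM in the vehicle input. Its log2 read ratio was lower than that of SMARCA4 by 2.98 (2.02 to 3.94) in lactate cells and by 1.10 (0.41 to 1.79) in vehicle cells. SMARCC2 (BAF170), the partner of SMARCC1 in the scaffold, had 2.71, 0.702, 5.76 and 0.952 FPKM in the lactate IP, lactate input, vehicle IP and vehicle input. SMARCC1 exceeded it by 0.83 (0.38 to 1.28) in lactate cells and by 0.34 (0.05 to 0.63) in vehicle cells on the log2 scale. These differences compare ratios within the same libraries, so the mitochondrial share does not enter them.

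The targeting subunits divided. ARID1A, which defines the canonical BAF complex, had 0.743, 0.342, 0.875 and 0.377 FPKM in the lactate IP, lactate input, vehicle IP and vehicle input, and log2 read ratios of 1.12 (0.70 to 1.54) in lactate cells and 1.21 (0.87 to 1.56) in vehicle cells. Its paralogue ARID1B had 0.515, 0.415, 1.02 and 0.620 FPKM in the same order, with ratios of 0.31 (0.07 to 0.55) in lactate cells and 0.72 (0.55 to 0.89) in vehicle cells. The ratio of ARID1A was thus above that of ARID1B in both conditions. BRD9, a bromodomain protein of the non-canonical BAF complex, had 1.70 FPKM in the lactate IP and 0.375 FPKM in the lactate input, against 3.38 FPKM in the vehicle IP and 0.511 FPKM in the vehicle input. Its ratios were 2.18 (1.70 to 2.66) in lactate cells and 2.72 (2.39 to 3.06) in vehicle cells.

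Of the PBAF subunits, PBRM1 and BRD7 had lower ratios than ARID2 in both conditions. PBRM1 (BAF180), which carries several bromodomains, had 2.82 FPKM in the lactate IP and 4.70 FPKM in the lactate input, against 7.14 FPKM in the vehicle IP and 6.52 FPKM in the vehicle input. Its ratios were −0.74 (−0.92 to −0.55) in lactate cells and 0.13 (0.01 to 0.26) in vehicle cells, and on the nuclear-read scale −0.15 and 0.18. BRD7 had 1.76, 2.07, 4.45 and 3.03 FPKM in the lactate IP, lactate input, vehicle IP and vehicle input, with ratios of −0.24 (−0.51 to 0.04) and 0.55 (0.37 to 0.73) in lactate and vehicle cells. Per nuclear-genome read both of its ratios were above 0. The processed pseudogene BRD7P2 was listed at 2.44, 1.33, 5.14 and 1.40 FPKM in the same order, so reads may be split between the 2 genes and the values of BRD7 are uncertain. ARID2, the PBAF counterpart of ARID1A, had 1.60 FPKM in the lactate IP and 0.974 FPKM in the lactate input, against 4.99 FPKM in the vehicle IP and 1.17 FPKM in the vehicle input. Its ratios were 0.71 (0.42 to 1.01) in lactate cells and 2.09 (1.89 to 2.29) in vehicle cells.

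ACTL6A (BAF53A), an actin-related subunit of SWI/SNF that is shared with INO80-family complexes, ran the other way in vehicle cells. It had 1.33 FPKM in the lactate IP and 1.63 FPKM in the lactate input, against 1.5 FPKM in the vehicle IP and 4.13 FPKM in the vehicle input. The vehicle input stood above the other 3 libraries. Its log2 read ratio was −0.30 (−0.78 to 0.18) in lactate cells, or 0.29 on the nuclear-read scale, and −1.46 (−1.83 to −1.09) in vehicle cells.

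The remaining SWI/SNF members were low. SMARCD1 (BAF60A), an adaptor to transcription factors, had 1.21, 0.438, 2.58 and 0.567 FPKM in the lactate IP, lactate input, vehicle IP and vehicle input, with ratios of 1.46 in lactate cells and 2.18 in vehicle cells. It exceeded its paralogue SMARCD2 by 1.04 (0.05 to 2.04) in lactate cells, while the 0.60 (−0.30 to 1.5) in vehicle cells was within counting error. SMARCB1 (SNF5), a core subunit lost in rhabdoid tumours, had 0.163, 0.0866, 0.564 and 0.117 FPKM in that order. Its ratios were 0.91 (0.08 to 1.75) in lactate cells and 2.27 (1.73 to 2.82) in vehicle cells. SMARCD2 had 0.446, 0.334, 0.548 and 0.183 FPKM, and SMARCD3 had 0.0669, 0.0364, 0.0746 and 0.0115 FPKM, in that order. SMARCD3 rested on 5, 2, 5 and 1 reads, too few for a ratio to be read. SMARCE1 (BAF57), a DNA-binding subunit, had 0.0535 FPKM in the lactate IP and 0.102 FPKM in the lactate input, against 0.131 FPKM in the vehicle IP and 0.0584 FPKM in the vehicle input, on 15 to 33 reads. Its pseudogene SMARCE1P5 was listed at 0.269, 0.438, 0.420 and 0.973 FPKM in that order, above SMARCE1 itself in each library, so the values of SMARCE1 are uncertain.

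RSF1 and BAZ1B of the ISWI family had the highest mean levels of the 35 genes, ahead of SMARCC1, and in the lactate input the ATPase SMARCA1 was the highest. BAZ1B (WSTF), at chr7:73440406-73522293, is a bromodomain protein deleted in Williams syndrome that pairs with SMARCA5 at replication sites. It had 17.5 FPKM in the lactate IP and 2.45 FPKM in the lactate input, against 38.1 FPKM in the vehicle IP and 3.89 FPKM in the vehicle input. BAZ2A (TIP5), the partner in the nucleolar complex that silences ribosomal genes, had 8.49 FPKM in the lactate IP and 0.949 FPKM in the lactate input, against 19.95 FPKM in the vehicle IP and 0.934 FPKM in the vehicle input. In both genes each IP was several times above each input. The log2 read ratios of BAZ1B were 2.84 (2.63 to 3.05) in lactate cells and 3.29 (3.16 to 3.43) in vehicle cells, and those of BAZ2A were 3.16 (2.89 to 3.43) in lactate cells and 4.42 (4.20 to 4.63) in vehicle cells. In vehicle cells the ratio of BAZ2A was the highest of the 35.

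RSF1, the histone-binding partner in the remodelling and spacing factor complex, had 14.5 FPKM in the lactate IP and 6.01 FPKM in the lactate input, against 38.8 FPKM in the vehicle IP and 8.79 FPKM in the vehicle input. It had the highest mean level of the 35 genes and 8239 reads in the vehicle IP, and its ratios were 1.27 (1.17 to 1.37) in lactate cells and 2.14 (2.08 to 2.21) in vehicle cells. BPTF, which anchors the NURF complex to trimethylated histone H3, had 6.79, 1.56, 12.9 and 1.96 FPKM in the lactate IP, lactate input, vehicle IP and vehicle input. Its ratios were 2.12 (1.94 to 2.31) in lactate cells and 2.72 (2.58 to 2.86) in vehicle cells. BAZ2B, the paralogue of BAZ2A, had 2.85, 1.44, 7.97 and 1.57 FPKM in the same order, and lay below BAZ2A in ratio by 2.18 (1.85 to 2.51) in lactate cells and by 2.08 (1.82 to 2.33) in vehicle cells.

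BAZ1A (ACF1), the partner of SMARCA5 in the ACF and CHRAC complexes, differed between the conditions. It had 3.74 FPKM in the lactate IP and 5.11 FPKM in the lactate input, against 14.6 FPKM in the vehicle IP and 6.43 FPKM in the vehicle input. The vehicle IP stood alone above the other 3 libraries. The log2 read ratio was −0.45 (−0.64 to −0.26) in lactate cells, or 0.14 on the nuclear-read scale, and 1.19 (1.07 to 1.31) in vehicle cells. An antisense RNA, BAZ1A-AS1, was listed at 0.218, 1.56, 0.104 and 1.31 FPKM in the lactate IP, lactate input, vehicle IP and vehicle input. The sources used here do not say whether counting used strand, so reads of the pair cannot be told apart.

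The 2 ISWI ATPases stayed near the inputs. SMARCA5 (SNF2H) had 1.77 FPKM in the lactate IP and 2.32 FPKM in the lactate input, against 4.97 FPKM in the vehicle IP and 4.55 FPKM in the vehicle input. SMARCA1 (SNF2L) had 6.23 FPKM in the lactate IP and 6.71 FPKM in the lactate input, against 11.2 FPKM in the vehicle IP and 8.04 FPKM in the vehicle input. SMARCA5 had ratios of −0.39 (−0.66 to −0.12) in lactate cells and 0.12 (−0.04 to 0.29) in vehicle cells, and SMARCA1 of −0.11 (−0.32 to 0.10) in lactate cells and 0.48 (0.32 to 0.63) in vehicle cells. All 4 of these ratios were above 0 on the nuclear-read scale, between 0.17 and 0.52. The paralogues differed by −0.28 (−0.63 to 0.06, SMARCA5 minus SMARCA1) in lactate cells, within counting error, and by −0.35 (−0.58 to −0.12) in vehicle cells. Of the partners, BAZ1B exceeded BAZ1A in ratio by 3.29 (3.01 to 3.58) in lactate cells and 2.11 (1.93 to 2.29) in vehicle cells.

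Among the CHD genes, CHD3 and CHD1 marked the ends of the range in both conditions. CHD3 (Mi-2α), an ATPase of the NuRD complex that combines remodelling with histone deacetylation, had 2.0 FPKM in the lactate IP and 0.162 FPKM in the lactate input, against 4.06 FPKM in the vehicle IP and 0.397 FPKM in the vehicle input. Its paralogue CHD4 (Mi-2β) had 0.368 FPKM in the lactate IP and 0.246 FPKM in the lactate input, against 0.757 FPKM in the vehicle IP and 0.205 FPKM in the vehicle input. CHD3 had ratios of 3.62 (2.97 to 4.27) in lactate cells and 3.36 (3.01 to 3.70) in vehicle cells, and exceeded CHD4 by 3.04 (2.17 to 3.92) and 1.47 (0.88 to 2.07) in lactate and vehicle cells. The authors' peak lists, described below, did not show the same gap. Median listed folds were 5.31 in lactate cells and 7.89 in vehicle cells for CHD4, against 4.79 and 6.22 for CHD3. The highest fold was 22.0 for CHD4 and 17.3 for CHD3 in lactate cells, and 15.2 and 23.1 in vehicle cells. In lactate cells the CHD4 ratio rested on 71 reads in the IP and 35 in the input. CHD1, which binds trimethylated histone H3 at active genes, had 3.61, 3.98, 8.01 and 5.42 FPKM in the lactate IP, lactate input, vehicle IP and vehicle input. It had the highest mean level of the family, and ratios of −0.14 (−0.32 to 0.04) in lactate cells and 0.56 (0.44 to 0.69) in vehicle cells, or 0.45 and 0.61 on the nuclear-read scale. CHD2, its paralogue, had 2.69, 0.907, 4.86 and 1.24 FPKM in that order and exceeded CHD1 in ratio by 1.71 (1.42 to 2.0) in lactate cells and 1.40 (1.20 to 1.60) in vehicle cells.

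CHD7, the gene mutated in CHARGE syndrome, had 1.20 FPKM in the lactate IP and 0.261 FPKM in the lactate input, against 1.48 FPKM in the vehicle IP and 0.366 FPKM in the vehicle input. CHD8, a regulator of Wnt target genes that is mutated in autism, had 0.682, 0.145, 1.23 and 0.273 FPKM in the lactate IP, lactate input, vehicle IP and vehicle input. CHD6 had 4.00, 1.24, 6.61 and 1.25 FPKM and CHD9 had 1.19, 1.22, 3.08 and 1.73 FPKM in that order. In CHD6, CHD7 and CHD8 both IPs were above both inputs. In CHD9 the vehicle IP alone stood apart from the rest. Ratios of the first 3 lay between 1.68 and 2.40 in both conditions, while CHD9 had −0.04 (−0.29 to 0.21) in lactate cells, or 0.55 on the nuclear-read scale, and 0.83 (0.66 to 0.99) in vehicle cells.

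In the INO80 family, INO80 and EP400 were higher in both IPs and SRCAP was barely measured. INO80, the ATPase of the complex of that name, had 1.40 FPKM in the lactate IP and 0.226 FPKM in the lactate input, against 2.60 FPKM in the vehicle IP and 0.328 FPKM in the vehicle input. EP400 (p400), an ATPase that works with the TIP60 acetyltransferase and deposits histone variants, had 0.624 FPKM in the lactate IP and 0.0446 FPKM in the lactate input, against 1.27 FPKM in the vehicle IP and 0.248 FPKM in the vehicle input. INO80 had log2 read ratios of 2.64 (2.19 to 3.08) in lactate cells and 2.99 (2.69 to 3.29) in vehicle cells. EP400 had ratios of 3.81 (2.84 to 4.77) and 2.35 (2.0 to 2.71) in lactate and vehicle cells, the higher one resting on 9 reads in the lactate input. A pseudogene, EP400P1, was listed at 0.210, 0.174, 0.750 and 0.274 FPKM in the lactate IP, lactate input, vehicle IP and vehicle input, so the low input values of EP400 are uncertain. SRCAP, the ATPase that installs histone H2A.Z, was listed at 0.00483 FPKM in the lactate IP, 0 in the lactate input, 0.0377 FPKM in the vehicle IP and 0.0499 FPKM in the vehicle input, on 1, 0, 7 and 12 reads.

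Over the members, IP over input was above 0 in both conditions for 25 of the 34 genes with a ratio in each, against 49.2% of all genes with at least 10 reads. The members were not held to that read filter. SMARCD3, with 5 and 2 reads in lactate cells and 5 and 1 in vehicle cells, is among the 25. Per nuclear-genome read IP over input was above 0 in both for 31 of the 34, against 58.2% of all genes. The median log2 read ratio of the members was 1.07 in lactate cells, where the median of all genes was 0.16, and 2.09 in vehicle cells, where it was 0.67. In FPKM + 1 the members' median log2 ratio in lactate cells lay 0.97 above that of all genes, and 0.12 above it when both libraries had to reach 1 FPKM. The ratio was at least 2-fold higher for 18 members and lower for 0 in lactate cells, against 31.5% and 26.4% of all genes. In vehicle cells it was at least 2-fold higher for 26 members, SMARCD3 among them, and lower for ACTL6A alone, against 42.1% and 18.5% of all genes.

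On the log2 scale of FPKM + 1, which shrinks the ratio of low genes, 24 members passed a filter of 1 FPKM in the lactate IP or input, and 9 of them were at least 2-fold higher, against 16% of the 7170 genes tested. None of the 24 was at least 2-fold lower, against 23.3%. In vehicle cells 27 passed and 16 were at least 2-fold higher, against 27.6% of 9099 genes, and ACTL6A was lower, against 15.3%. Of these members, 14 in lactate cells and 16 in vehicle cells had 1 FPKM or more in both libraries. The others passed through 1 library, mostly the IP, and had to differ, so these counts carry no weight as support. Among the members at 1 FPKM or more in both libraries, 5 in lactate cells and 9 in vehicle cells were at least 2-fold higher. The share of all genes under this stricter filter was not computed, so these counts have no background. On this scale the highest in lactate cells were BAZ1B at 2.42, BAZ2A at 2.28 and SMARCC1 at 2.19, and in vehicle cells BAZ2A at 3.44, BAZ1B at 3.0 and SMARCC1 at 2.61.

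**Figure D2:**
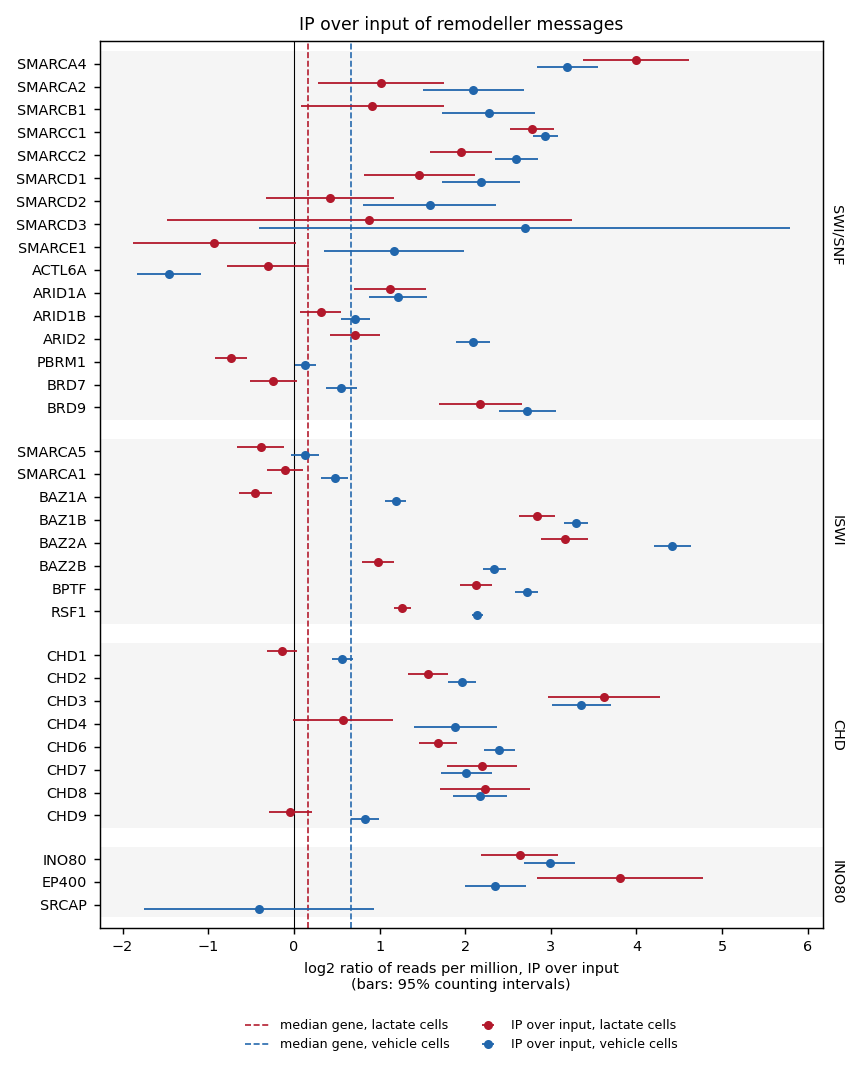
Log2 read ratio of IP over input for each gene with its 95% counting interval, lactate cells and vehicle cells side by side, with the median of all genes in each condition as a line. Most points lie right of the lines, and ACTL6A lies left of 0 in both conditions (right of 0 in lactate cells, at 0.29, on the nuclear-read scale).

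The members had a median exon length of 12713 bp, between 3668 and 45931 bp, against 5137 bp over 14468 protein-coding genes. Among protein-coding genes over 10 kb, the median log2 read ratio was 0.40 in lactate cells and 0.97 in vehicle cells, while the members over 10 kb had 1.27 (21 genes) and 2.12 (22 genes). Across the members, Spearman's rho between ratio and exon length was 0.22 in lactate cells (n = 34) and 0.07 in vehicle cells (n = 35), and between ratio and input FPKM −0.37 and −0.24. Over all protein-coding genes, rho with input FPKM was −0.55 in lactate cells (n = 10507) and −0.49 in vehicle cells (n = 11111). The points share their libraries, and input FPKM enters the ratio itself, so these values are descriptions.

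Other genes listed beside the members, most of them subunits of the same complexes, had medians close to those of all genes. The medians of all genes were −0.10 in lactate cells and 0.44 in vehicle cells. The list also held ATRX, HELLS, SMARCAD1, SMARCAL1 and CHD1L, which are separate ATPases. Of 61 such genes, 60 were in the table, and 35 passed the filter in lactate cells and 46 in vehicle cells. In lactate cells 4 were at least 2-fold higher and 11 lower on the log2 scale of FPKM + 1, against 16% and 23.3% of all genes. Their median was −0.12. In vehicle cells 11 were higher and 6 lower, against 27.6% and 15.3%, with a median of 0.43. Of those that passed, 17 in lactate cells and 34 in vehicle cells had 1 FPKM or more in both libraries. The others passed through 1 library, so these counts also carry no weight as support. The lowest were YEATS4, a histone-reading subunit of SRCAP and TIP60 complexes, at −2.06 in lactate cells and −2.98 in vehicle cells, and CHRAC1, a histone-fold subunit of CHRAC, at −2.46 in lactate cells and −1.93 in vehicle cells. The highest were BCL7C, a SWI/SNF subunit, at 1.46 in lactate cells and 1.78 in vehicle cells, with MBD3, a NuRD subunit, at 1.47 in lactate cells and RUVBL2, an ATPase of the INO80 family, at 1.75 in vehicle cells. The difference between the 2 lists was not tested.

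Between conditions, the order of inputs and IPs depended on the scale. The members' median log2 read ratio of lactate over vehicle was −0.45 in the inputs and −1.04 in the IPs, and per nuclear-genome read it was 0.13 and 0.08. There 25 of 34 inputs were above 0, against 51.4% of all genes. On the log2 scale of FPKM + 1, 16 members passed in the inputs and none was at least 2-fold higher or lower in the lactate input than in the vehicle input, against 1.76% and 6.46% of 6766 genes. Their median was −0.33, where the median of all genes was −0.43. The lowest were ACTL6A at −0.96, SMARCC1 at −0.76 and SMARCA5 at −0.74, and the highest was CHD6, with 1.24 FPKM in the lactate input and 1.25 FPKM in the vehicle input. In recovered reads 5 were at least 2-fold lower and 1 higher (SMARCD3, on 2 and 1 reads), against 22.8% and 3.46% of all genes. EP400 had the lowest ratio, −2.48 (−3.47 to −1.48), on 9 reads in the lactate input and 79 in the vehicle input. ACTL6A followed at −1.34 (−1.72 to −0.95), and on the nuclear-read scale these values were −1.90 and −0.76. In bulk RNA, fewer cells and less of a transcript per cell cannot be told apart.

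In the lactate IP all 35 members had fewer reads per library read than in the vehicle IP, against 88.4% of all genes with at least 10 reads. The 35 include SRCAP, which fell short of that filter with 1 read in the lactate IP and 7 in the vehicle IP. Per nuclear-genome read, 20 were higher and 15 lower, against 56.3% of all genes higher. In recovered reads 21 were at least 2-fold lower and 0 higher, against 51% and 3.42% of all genes. On the log2 scale of FPKM + 1, 27 passed, 9 were at least 2-fold lower and 0 higher, against 27.7% and 1.64% of 8366 genes, and the median of the members was −0.84 beside −0.74 for all genes. BAZ1A was the lowest at −1.72, then RSF1 at −1.37 and BAZ2B at −1.22. ACTL6A at −0.10, SMARCA4 at −0.17 and CHD7 at −0.18 were the nearest to 0. The share at least 2-fold lower is close to the background share, and the members' median is close to the median of all genes.

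In whole-gene values the ISWI genes lay on the low side of this comparison. On the log2 scale of FPKM + 1, 6 of the 8 were at least 2-fold lower, against 27.7% of all genes, and all 8 were below the median gene. When centred on the median gene or with equal nuclear totals, 0 members were at least 2-fold lower. In recovered reads SMARCA1 at −0.84 and BPTF at −0.93 were above the median gene of −1.01. Per nuclear-genome read, 6 were below 0 and SMARCA1 and BPTF above it. BAZ1A had 437 reads in the lactate IP and 1534 in the vehicle IP, a log2 read ratio of −1.97 (−2.12 to −1.82), or −0.85 on the nuclear-read scale. In the inputs it had 440 reads and 872 reads in lactate and vehicle cells, a ratio of −0.33 (−0.49 to −0.16), which turned to 0.25 (0.08 to 0.42) on the nuclear-read scale.

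**Figure D3:**
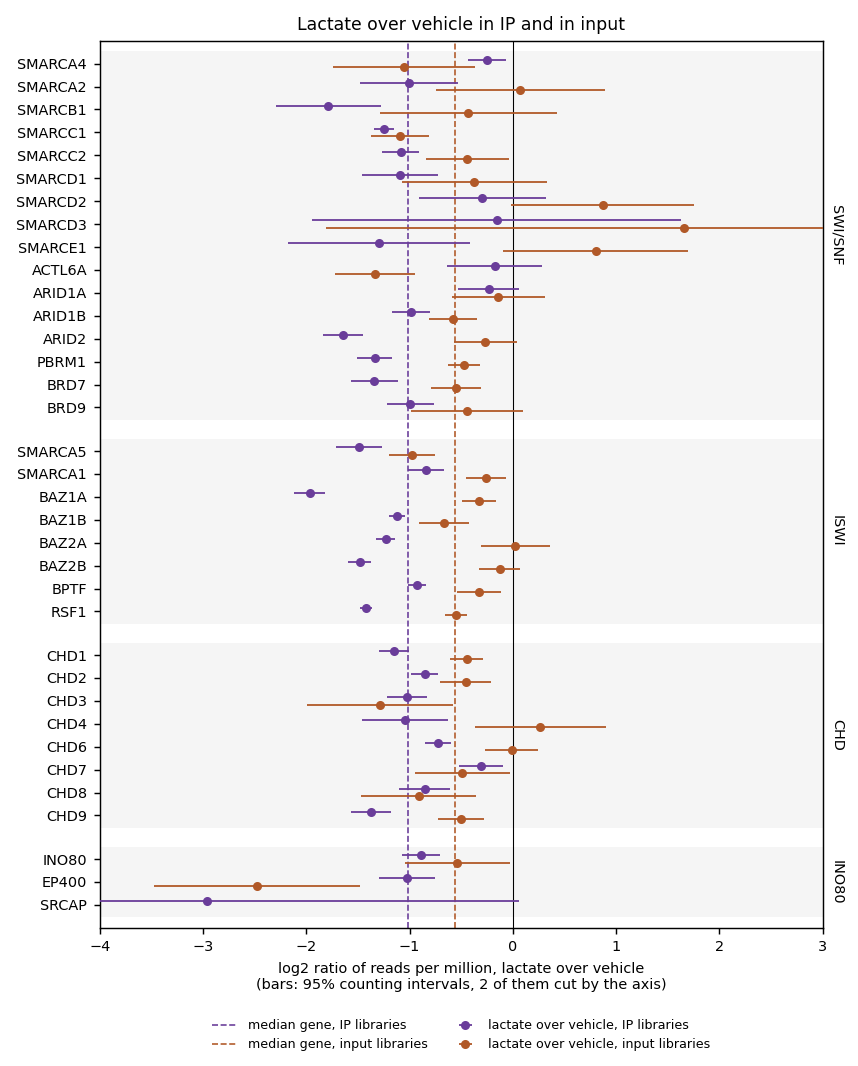
Log2 read ratio of lactate over vehicle for each gene, in the IPs and in the inputs, with 95% counting intervals and the median of all genes as a line. BAZ1A, ARID2 and SMARCB1 lie farther left in the IP than in the input, while EP400, ACTL6A and SMARCA4 lie farther left in the input.

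The difference of the 2 enrichments, lactate cells minus vehicle cells for the ratio of IP to input, was below 0 in recovered reads for 28 of 34 members, against 70.7% of all genes with at least 10 reads, and for 21 of 34 on the nuclear-read scale, against 45.7%. On the log2 scale of FPKM + 1, 27 members passed, of which 4 were at least 2-fold lower and 0 higher, against 9.56% and 3.04% of 9445 genes. These 4 were BAZ1A at −1.44, BAZ2A at −1.15, BAZ2B at −1.14 and ARID2 at −1.07, where the median of all genes was −0.36. At least 2-fold in recovered reads, 10 were lower and 2 higher, against 26% and 9.88% of all genes. BAZ1A differed there by −1.64 (−1.87 to −1.41), ARID2 by −1.38 (−1.73 to −1.02), BAZ2B by −1.36 (−1.58 to −1.13) and BAZ2A by −1.26 (−1.60 to −0.91). On the nuclear-read scale these were −1.10, −0.84, −0.81 and −0.71.

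In 3 members the difference was above 0 with its whole interval, against 5.81% of all genes, and in 22 it was below 0. Of the 3, EP400 differed by 1.45 (0.42 to 2.48), ACTL6A by 1.16 (0.56 to 1.76) and SMARCA4 by 0.80 (0.09 to 1.51). Per nuclear-genome read the whole interval was above 0 in 6 of 34 members, against 19.2% of all genes, and below 0 in 9. The 6 were these 3, SMARCC1 at 0.39 (0.09 to 0.68), turned from below 0, CHD3 at 0.81 (0.07 to 1.54) and CHD7 at 0.73 (0.22 to 1.23). The share of all genes with the whole interval below 0 was not computed. SMARCA4 had 22 and 72 reads in the lactate and vehicle inputs, and 477 and 509 in the lactate and vehicle IPs. Its log2 ratio of lactate over vehicle was −1.05 in the inputs and −0.25 in the IPs, or −0.47 and 0.87 on the nuclear-read scale, and that of ACTL6A was −1.34 and −0.18, or −0.76 and 0.95. On the log2 scale of FPKM + 1 the difference of SMARCA4 was −0.01. The comparisons share libraries, so the values of a gene in them are not independent.

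The authors' peak lists place the IP signal along the transcripts. There is 1 list per condition, of the IP against its own input, and folds and q values are those the authors listed. In lactate cells 350 of 48104 listed peaks, or 0.728%, were annotated to 33 of the members, and SMARCD2 and SMARCD3 had none. In vehicle cells 612 of 95785, or 0.639%, were annotated to all 35. At q below 0.01 stood 169 of the lactate peaks, or 48.3% beside 35.5% of the whole list, and 339 of the vehicle peaks, or 55.4% beside 40.3%. This share differed by annotation class. Within exons it was 70.0% beside 49.1% of peaks in protein-coding genes in lactate cells, and 71.1% beside 55.6% in vehicle cells. Within introns it was 28.0% beside 27.3% in lactate cells and 38.6% beside 32.7% in vehicle cells. Within 3′ UTRs it was 51.3% beside 58.6% and 71.4% beside 64.3%, in that order. A listed fold of at least 10 was reached by 27 lactate peaks in 15 members, 7.71% beside 3.26%, and by 67 vehicle peaks in 22 members, 10.9% beside 3.98%. These shares were not compared within classes. A member peak of the other list overlapped by at least 1 base for 245 of the lactate peaks (70.0%) and 236 of the vehicle peaks (38.6%). The same shares over the whole lists were not computed. In the authors' comparison of the IPs, 238 of 716 member regions were in both lists, beside 26381 of all 116484 regions.

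The members' peaks lay in annotated exons more often than those of protein-coding genes in general. Exons held 140 of the 350 lactate peaks, or 40.0% beside 18.8% of all peaks in protein-coding genes, and 249 of the 612 vehicle peaks, or 40.7% beside 21.0%. Introns held 46.9% beside 61.5% in lactate cells and 47.4% beside 61.2% in vehicle cells, and 3′ UTRs 11.1% beside 18.1% and 10.3% beside 15.8%. Exonic peaks had the higher listed folds, with medians of 4.42 in lactate cells and 4.95 in vehicle cells, against 3.24 and 3.03 for intronic peaks. The same order held over all protein-coding genes, with medians of 3.64 and 3.52 for exonic peaks and 3.24 and 3.03 for intronic peaks. The annotation depends on the transcript chosen for a peak: of the 245 lactate peaks that overlapped a vehicle peak, 11 had another class there. The differences in shares were not tested, and the peaks of a gene share its expression level.

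**Figure D4:**
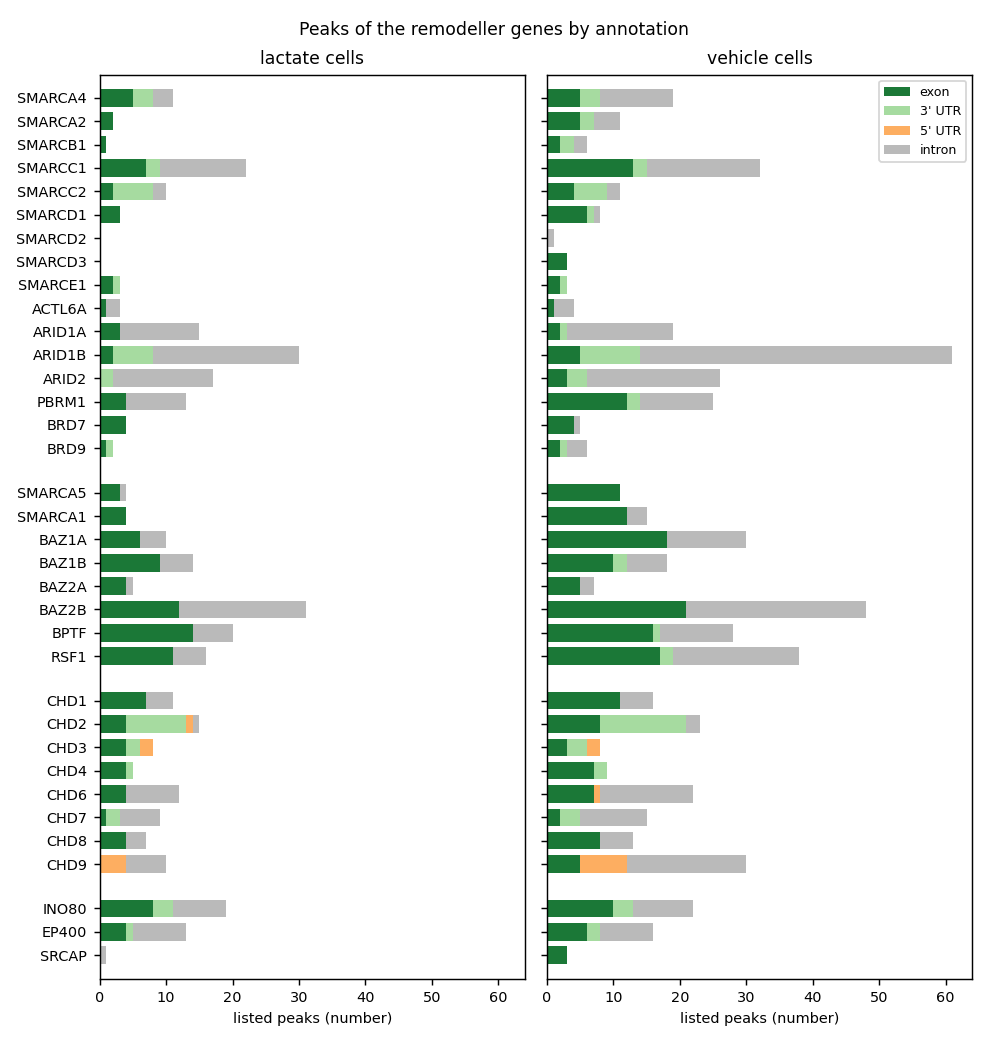
Number of listed peaks annotated to each gene in the lactate and vehicle lists, by annotation class. ARID1B has the most, 30 in lactate cells and 61 in vehicle cells, of which 22 and 47 are intronic, and BAZ2B follows with 31 and 48.

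The strongest lactate peak was in an exon of SMARCA4, at chr19:10996025-10996418, with a listed fold of 36.6 and q of 6.95e-102, and a vehicle peak of fold 37.95 overlapped it. In the authors' deposited table the read density there was 76.4 in the lactate IP and 39.8 in the vehicle IP, an M (log2 of lactate over vehicle) of 0.94. The strongest vehicle peak was in SMARCC1, at chr3:47635094-47635531, with a fold of 61.3 and q of 1.73e-175, beside 23.9 for the lactate peak at the same place. A neighbouring exon of SMARCC1, at chr3:47635850-47636323, had a vehicle fold of 45.2 and a lactate fold of 16.4. Both SMARCC1 peaks had an M below 0 in the authors' deposited table, −0.41 and −0.23.

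Other strong peaks lay in CHD4, CHD3, BAZ1B, BAZ2A and SMARCC2. The exonic CHD4 peak at chr12:6578349-6579105 had a fold of 22.0 in lactate cells and 12.8 in vehicle cells, although the whole gene had 71 reads in the lactate IP. CHD3 had its strongest lactate peak in the 3′ UTR, at chr17:7911615-7912309, with folds of 17.3 in lactate cells and 9.27 in vehicle cells. BAZ1B, at chr7:73441456-73442424, had 17.1 in lactate cells and 11.4 in vehicle cells, and the authors' deposited table gave an M of 0.53. BAZ2A, at chr12:56609553-56610645, had 16.1 in lactate cells and 36.1 in vehicle cells, and the authors' deposited table gave densities of 87.3 in the lactate IP and 171 in the vehicle IP, an M of −0.97. SMARCC2, at chr12:56181400-56182233, had 12.2 in lactate cells and 33.1 in vehicle cells, with an M of −0.05 in the authors' deposited table.

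**Figure D5:**
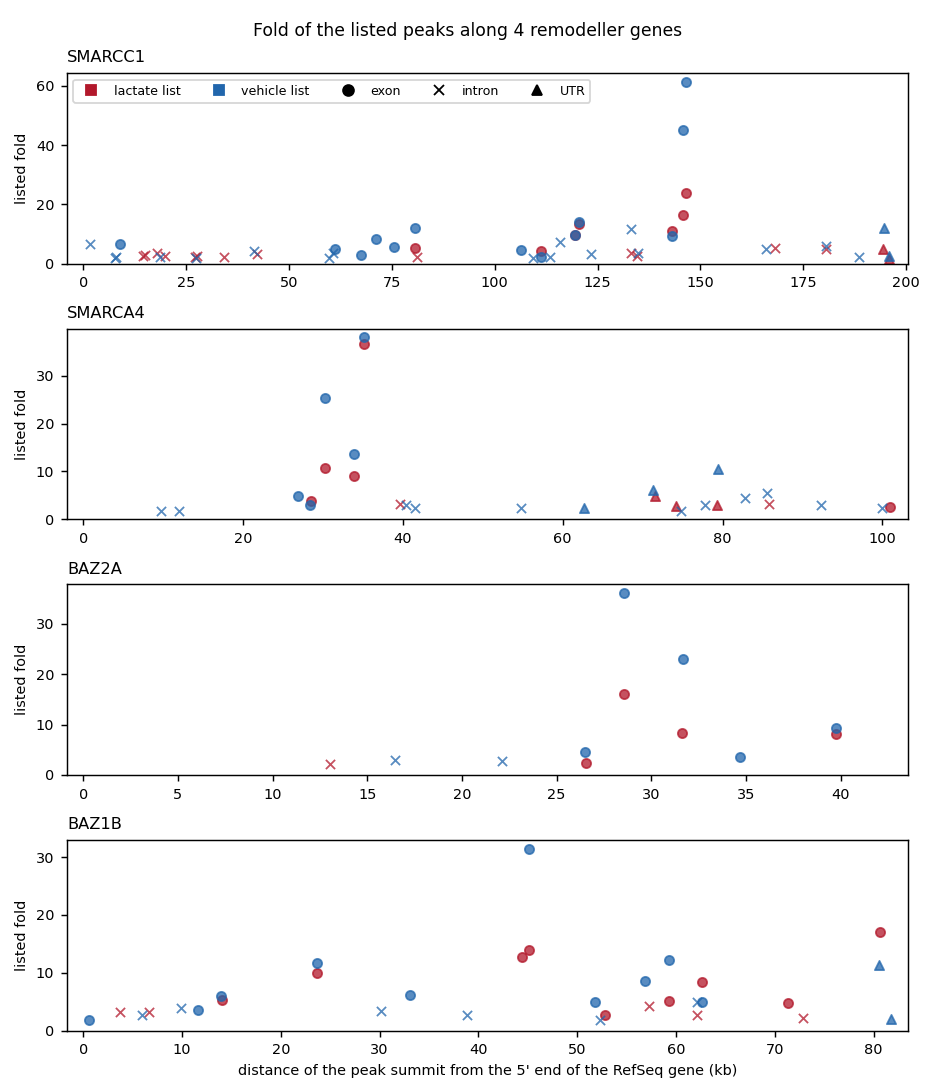
Listed fold of each peak against its distance from the gene start in kb for 4 genes, with lactate and vehicle peaks in different colours and exon, intron and UTR peaks as different symbols. The highest SMARCC1 peaks lie 146 to 147 kb from the gene start, and the highest SMARCA4 peaks 35.2 kb from it.

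Across the 716 member regions of the authors' deposited table, the median M was −0.42, beside −0.50 over all 116484 regions. An M of at least 1 was listed for 62 regions, or 8.66%, against 13.9% of all regions in the authors' deposited table, and an M of at most −1 for 247, or 34.5%, against 38.6%. In the 238 member regions found in both lists the authors' deposited table gave a median of −0.19, beside 0.00 over 26381 such regions. There the family medians in the authors' deposited table were −0.26 for SWI/SNF, −0.06 for ISWI, −0.05 for CHD and −0.16 for INO80. By this median ISWI was not the lowest family in the shared regions, unlike in the whole-gene values. Other measures of the authors' deposited table differed. Over all member regions ISWI had the lowest median, −0.44, beside −0.43 for SWI/SNF, −0.37 for CHD and −0.37 for INO80. In the shared regions it had the largest share at an M of at most −1. That share was 18.4%, beside 12.9% for SWI/SNF, 9.26% for CHD and 13.0% for INO80. The sources used here do not say how the densities were scaled between the IPs, and the median near 0 of the authors' deposited table in shared regions differs from the FPKM scale, on which most genes were lower in the lactate IP.

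Peaks of the vehicle list covered an annotated transcript start of BRD9, CHD4, RSF1, SMARCD3 and CHD9. No lactate peak covered a start that was compared. Only the upstream BRD9 start was the 5′ end of its RefSeq gene, and the other covered starts lay inside their genes. In RSF1, on the minus strand, the covered start was at 77820722 and the gene began at 77872232. Starts were compared for 27 of the 35 members, and the other 8 were left out of this comparison. The lactate list was also shorter, with 48104 peaks against 95785 in the vehicle list. The share of all genes' starts covered in each list was not computed, so the difference between the lists has no background. The BRD9 peak, at chr5:892415-892838 on the minus strand, had a listed fold of 14.2 and q of 8.03e-42 and covered 2 annotated starts. The CHD4 peak had a fold of 11.5 and q of 2.11e-18, and the RSF1 peak a fold of 7.24 and q of 4.66e-14, while those of SMARCD3 and CHD9 had q of 0.140 and 0.950. NSUN2 sites in messenger RNA are known for a G-rich context just 3′ of the methylated C, so the 30 transcribed bases after each start of the 3 genes with strong peaks are shown for that context (RefSeq, GRCh38.p14). Capitals mark C, any base and GGG (CNGGG) on the transcribed strand.
BRD9 start at chr5:892521-892550: gagttCCGGGcacgcggaCGGGGgtcctgg
BRD9 start at chr5:892772-892801: gtttccggcgcggcccagcgagctcggcaa
CHD4 start at chr12:6606422-6606451: tgactcgggccagtgtagaggtcctcaggc
RSF1 start at chr11:77820693-77820722: agttcaaaatggcgacggcggcggcagcgg
The upstream BRD9 start, CHD4 and RSF1 did not hold CNGGG in this window, and the downstream BRD9 start held it at 2 places. Of 43 starts of the 27 members matched in the RefSeq table, 11 held it on the transcribed strand and 12 on the other strand, beside 20.6% and 19.9% of 35092 starts of all genes. A match of these letters is a description and not a methylated site.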

How the data were processed

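RNA immunoprecipitated with NSUN2 and its input were sequenced from PANC-1 cells with and without lactate, 1 library per group. The submitters' processing notes name MACS2 2.2.7.1, HISAT2 2.1.0, HOMER 4.11.1, DiffBind and fastp 0.20.1, and the build GRCh38. Not given in the sources used here are the read counter, its strand setting and the annotation. Gene levels were deposited as FPKM. Per the file headers, the peak lists hold a fold enrichment (a ratio), p-values and q-values and their −log10. The authors deposited a comparison of the IPs with log2 values (M, A) and densities (signal).

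Whole reads were recovered from FPKM steps; 99.99% of 72387 values above 0 were whole within 1e-06 reads. Since groups hold 1 library, no count test was run. Ratios used FPKM + 1, with a filter of 1 FPKM in at least 1 compared library, or recovered reads without a pseudocount. The recovery was tested on simulated data. A library's floor was 3 reads. Members, families and lists were chosen with earlier results of these data known. All 35 members are named. Values in each library were given for the 3 highest and 3 lowest members per comparison, the highest member and ATPases of each family, and members below the filter. The 5 strongest peaks per list are named. Analyses used Python 3.11.15, numpy 2.4.6, pandas 2.3.3 and scipy 1.17.1. Other pseudocounts, filters, scalings and peak thresholds were tried.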

Additional observations from a re-analysis of the deposited data

Results flagged for a closer look

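For 8 members, the log2 read ratio of IP over input was below 0 in lactate cells and above 0 in vehicle cells, against 15% of all genes with at least 10 reads. The difference between conditions was not tested, since each group is 1 library. BAZ1A differed by −1.64 (lactate −0.45, vehicle 1.19) and SMARCE1, on 15 to 33 reads, by −2.10 (lactate −0.93, vehicle 1.17). PBRM1 differed by −0.87 (−0.74 and 0.13) and CHD9 by −0.87 (−0.04 and 0.83). BRD7 differed by −0.79 (−0.24 and 0.55) and CHD1 by −0.70 (−0.14 and 0.56). SMARCA1 differed by −0.58 (−0.11 and 0.48) and SMARCA5 by −0.51 (−0.39 and 0.12). The median gene differed by −0.47. On the nuclear-read scale the signs stayed opposite for SMARCE1 (−0.34 and 1.21) and PBRM1 (−0.15 and 0.18) among these 8. Their intervals in lactate cells held 0, at −1.29 to 0.62 for SMARCE1 and −0.33 to 0.04 for PBRM1.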

How the results depend on the processing

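With other settings, 73 of 125 counts and medians stayed close to the values reported, 48 moved and 4 reversed. For single members past 2-fold, 162 of 221 stayed, 58 moved and 1 reversed. The cause was not tested unless the setting itself changes the genes that pass. In lactate cells, 9 members at least 2-fold higher in the IP became 5 with 1 FPKM required in every library, 16 with equal nuclear totals, 14 with a pseudocount of 0.1, 3 with 5, 18 in recovered reads and 24 in recovered reads per nuclear-genome read, both added after seeing the data. The members' median minus that of all genes, 0.97, became 0.12 with every library at 1 FPKM, 0.40 without a filter, 1.5 with a pseudocount of 0.1 and 0.33 with 5. In vehicle cells 16 became 9 with every library at 1 FPKM, 5 with a pseudocount of 5, 26 in recovered reads and 26 per nuclear-genome read. The single lower member became 0 with equal nuclear totals and 0 with a pseudocount of 5. The members' median minus that of all genes, 0.94, became 0.32 with a pseudocount of 5 and 1.43 in recovered reads.

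For the lactate minus vehicle difference, 0 higher became 1 when centred on the median gene, 1 with equal nuclear totals, 1 with a pseudocount of 0.1, 2 in recovered reads and 3 per nuclear-genome read. The 4 lower became 2 with every library at 1 FPKM, 1 when centred, 1 with equal nuclear totals, 0 with a pseudocount of 5 and 10 in recovered reads. The members' median minus that of all genes, −0.21, became 0.0034 with equal nuclear totals, −0.39 without a filter and −0.12 with a pseudocount of 0.1. For the IPs, 9 lower became 0 when centred, 0 with equal nuclear totals, 14 with a pseudocount of 0.1, 2 with 5, 21 in recovered reads and 1 per nuclear-genome read. For the IPs the members' median minus that of all genes was −0.094. It became 0.024 with equal nuclear totals, −0.54 without a filter, 0.025 with a pseudocount of 0.1, −0.16 with 5 and −0.027 in recovered reads. BAZ1B alone among single members reversed, to 0.032 with equal nuclear totals. For the inputs, 0 higher became 1 in recovered reads and 3 per nuclear-genome read. There 0 lower became 2 with a pseudocount of 0.1, 5 in recovered reads and 1 per nuclear-genome read. The members' median minus that of all genes, 0.099, became 0.048 with every library at 1 FPKM, −0.10 without a filter and 0.029 with a pseudocount of 5. At q below 0.01 the peaks numbered 169 of 350 and 339 of 612. No paired analysis was possible because each group holds 1 library. Depth limits SRCAP, SMARCD3 and SMARCE1, which had at most 33 reads in a library.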
